A study of Mus musculus with 6 samples.

Results

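TAF4b peaks centred 1 to 1000 bp downstream of a transcription start site (TSS) made up a minority of the TAF4b peaks mapped in oocytes of mouse embryos at E16.5, a stage shortly before birth. They were chosen by their signed distance to the nearest TSS in the authors' annotated lists, and by nothing else. The list of TAF4b replicate 1 held 168 such peaks among 983 (17.1%), and that of replicate 2 held 166 among 1111 (14.9%). Together these are 334 rows of 2094, or 302 peaks when a pair that was downstream in both lists is counted once. The peaks centred at -1000 to 0 bp, called upstream peaks here, numbered 742 and 908 and served as the comparison.

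TAF4b is a paralogue of TAF4 enriched in germ cells, where it can take the place of TAF4 in the TFIID complex. TFIID recognises core promoters and helps to place RNA polymerase II at the TSS. It contacts DNA on both sides of the start: TBP binds TATA-like sequence upstream, while other subunits reach the initiator and downstream core promoter elements. Female mice without TAF4b lose oocytes around birth and are infertile. H3K4me3, trimethylated lysine 4 of histone H3, marks the nucleosomes that flank active starts, and the TFIID subunit TAF3 can bind it.

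The study made 6 CUT&RUN libraries, 2 each for TAF4b, H3K4me3 and IgG, and the lists of the 4 TAF4b and H3K4me3 libraries were used. CUT&RUN releases the DNA around an antibody target with a tethered nuclease. All libraries came from E16.5 female germ cells of strain C57BL/6 with the genotype Taf4b-wildtype, sorted by the GFP of an Oct4-EGFP reporter for which the mated mice were homozygous. Oct4 (Pou5f1) is a germ-cell and pluripotency gene. The labels do not say how many embryos were pooled or whether replicates were separate animals. The lists name no genes, so the sorted cells could not be checked against markers. IgG was not analysed here, and no background level stands beside the values.

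Peaks had a fixed width, 90 bp in the list of replicate 1 and 134 bp in that of replicate 2. The H3K4me3 lists were very unequal, with 8129 regions in replicate 1 and 320 in replicate 2. Library depth is unknown, since the lists give no read totals. The score is the authors' own, on a scale that the sources do not state, and was compared only within a list. Peaks of a library are not biological replicates, so each test below compares groups of peaks, and its interval covers counting error only. The genome sequence of the build, GRCm39, was not used here, and no sequence is shown.

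Downstream peaks crowded against the TSS. In replicate 1, 94 of the 168 (56.0%) were centred at 1 to 50 bp and 33 (19.6%) at 51 to 100 bp. In replicate 2 these bins held 109 (65.7%) and 25 (15.1%) of the 166. Median distances were 42.5 bp and 32 bp, with middle ranges (lower to upper quartile) of 16 to 97 bp and 11 to 73 bp. The tail was thin in both libraries: 41 and 32 peaks lay beyond 100 bp, of which 8 in each list lay beyond 500 bp.

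**Figure D1:**
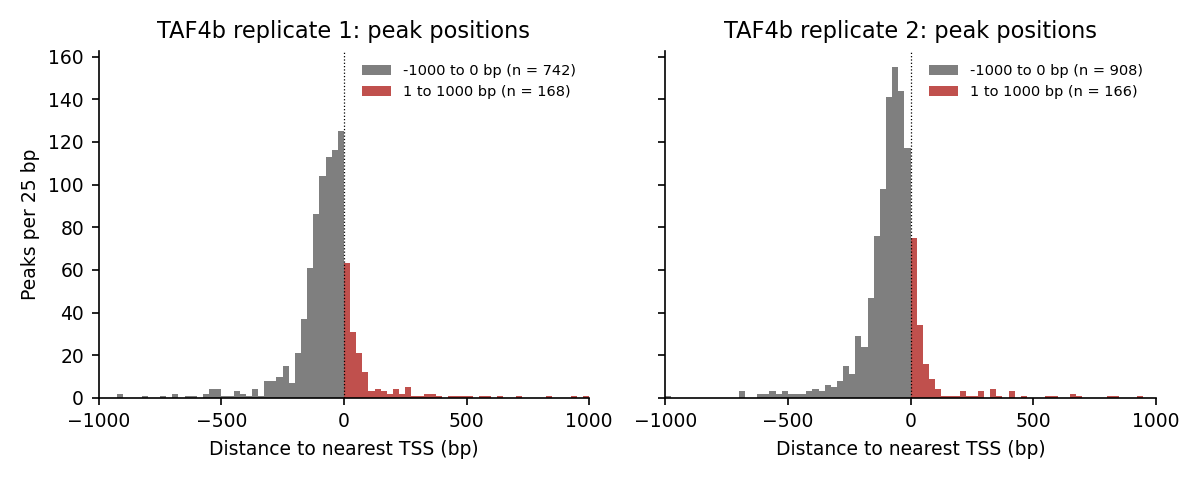
Number of TAF4b peaks per 25 bp (y axis) against the distance of their centre to the nearest TSS in bp (x axis), in replicate 1 (left) and replicate 2 (right). Red bars are the 168 and 166 downstream peaks and grey bars the 742 and 908 upstream peaks; the red bars fall off within about 100 bp.

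The boundary at the TSS cut through a dense part of the distribution. At exactly 1 bp lay 2 peaks of replicate 1 and 9 of replicate 2, and at exactly 0 bp lay 11 and 8. Median scores on either side were equal: 7.7 for the 14 peaks at 1 to 5 bp and 7.7 for the 28 at -4 to 0 bp in replicate 1, and 17.2 for 33 and 17.2 for 20 peaks in replicate 2. At the far end, the last peaks inside the window were at 981 bp (score 10.4) and 941 bp (score 30.4). The next ones outside it lay at 1043 bp (score 7.31) and 1546 bp (score 22.3).

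The authors' annotation put most downstream peaks in its promoter-TSS class, 142 of 168 in replicate 1 (84.5%) and 149 of 166 in replicate 2 (89.8%). All 127 and 134 peaks within 100 bp were in that class, as were all upstream peaks. The class therefore follows largely from the position that defined the peaks and was not tested. Beyond 100 bp the classes divided. In replicate 1 the 41 peaks there were 15 promoter-TSS, 12 first exon, 11 first intron, 2 later exon and 1 transcription termination site. In replicate 2 the 32 were 15 promoter-TSS, 8 first exon, 7 first intron, 1 later exon and 1 later intron.

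The 15 promoter-TSS peaks beyond 100 bp in each list, at up to 826 and 653 bp from their nearest TSS, were all annotated to the promoter of another transcript than the nearest. More broadly, the annotation named another transcript than the nearest for 115 of the 168 downstream peaks of replicate 1 and 125 of the 166 of replicate 2, and for 477 of 742 and 589 of 908 upstream peaks. A position on either side thus refers to the nearest annotated start, and many of these promoters carry several.

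First-exon peaks had median distances of 250.5 and 407.5 bp in the lists of replicates 1 and 2, and 4 in each lay in transcripts of a single exon. First-intron peaks had medians of 282 and 417 bp. Median scores of the first-exon peaks were 7.32 and 16.2, and those of the first-intron peaks were 6.54 and 20.3, beside 7.7 and 18.3 over all downstream peaks. The order of the classes by score thus differed between the lists. Few of these peaks were shared, that is, overlapped a peak of the other TAF4b list by at least 1 bp, which 43.6% of all replicate 1 peaks and 38.6% of all replicate 2 peaks did. The shared ones were 2 of 12 first-exon and 0 of 11 first-intron peaks of replicate 1, and 2 of 8 and 1 of 7 of replicate 2. H3K4me3 regions of either list overlapped 9 of 12 first-exon and 7 of 11 first-intron peaks of replicate 1 and 4 of 8 and 3 of 7 of replicate 2, beside 55.0% and 58.4% of all peaks of these lists.

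Downstream peaks were found in the other TAF4b library less often than upstream peaks in replicate 1. A difference passed if its adjusted p was under 0.05. Among downstream peaks of replicate 1, 57 of 168 were shared (33.9%, exact 95% interval 26.8 to 41.6%), against 364 of 742 upstream peaks (49.1%, 45.4 to 52.7%). The odds ratio of 0.534 (interval 0.369 to 0.767) passed, with p = 0.000424 and an adjusted p = 0.0034 over 8 tests (Fisher's exact test, two-sided here and below). In replicate 2 the shares were 55 of 166 (33.1%, 26.0 to 40.9%) and 366 of 908 (40.3%, 37.1 to 43.6%). That odds ratio, 0.734 (0.507 to 1.05), did not pass, with p = 0.0844 and an adjusted p = 0.135 in the same exact test. Whether the lists differ in this contrast was not tested.

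The contrast in replicate 1 did not pass near the TSS or among the stronger peaks. With both sides limited to 100 bp, its odds ratio was 0.785 (adjusted p = 0.357 in Fisher's exact test), from 51 of 127 against 212 of 460 peaks. Beyond 100 bp on each side, 6 of 41 downstream peaks were shared against 152 of 282 upstream peaks, an odds ratio of 0.147 (0.0491 to 0.369, adjusted p = 1.15e-05 in Fisher's exact test). In replicate 2 the same window gave 8 of 32 against 144 of 348, an odds ratio of 0.473 (0.179 to 1.13, adjusted p = 0.143 in Fisher's exact test). Among replicate 1 peaks with a score above the list median, 43 of 71 downstream and 264 of 394 upstream peaks were shared (odds ratio 0.757, adjusted p = 0.454 in Fisher's exact test). Among the others, the counts were 14 of 97 and 100 of 348 (odds ratio 0.419, adjusted p = 0.0301 in Fisher's exact test). The splits by score were added after the lists had been seen, and the differences between windows and between score groups were not tested. Adjusted p-values of windows and score groups, here and below, do not correct for the number of them tried.

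**Figure D2:**
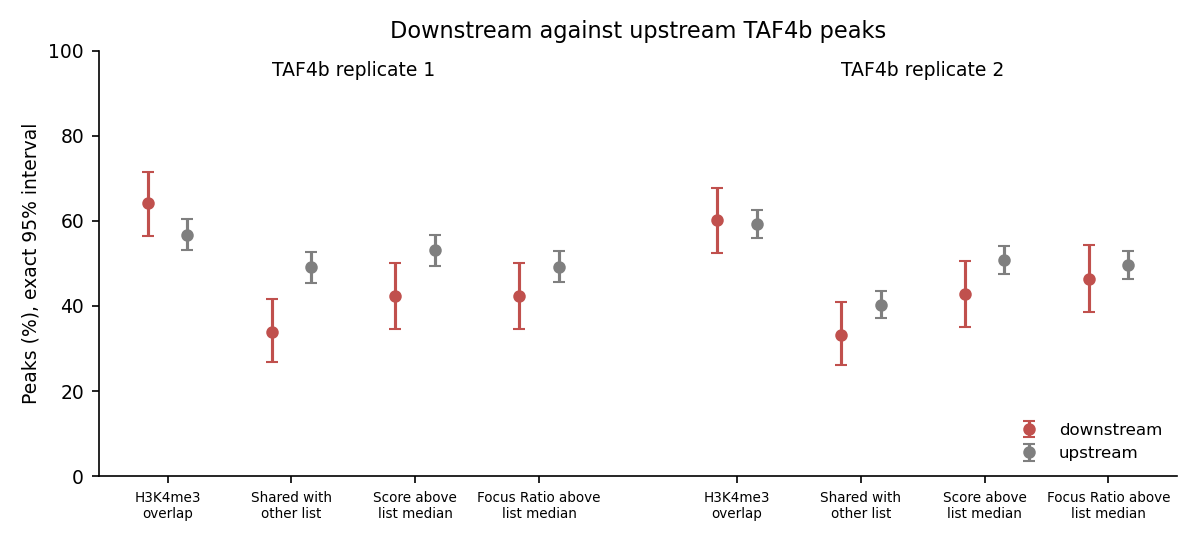
Share of peaks in percent (y axis) with each of 4 properties (x axis), for downstream (red) and upstream (grey) peaks of TAF4b replicates 1 and 2; bars are exact 95% intervals. The gap is widest for sharing with the other list in replicate 1, 33.9% against 49.1%.

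Peaks without a partner mostly had no peak of the other list nearby, on either side of the TSS. Of the 111 unshared downstream peaks of replicate 1, 16 had a peak of replicate 2 within 1 kb and 95 had none within 10 kb. For the 111 of replicate 2 the counts were 12 and 97. Among unshared upstream peaks, 326 of 378 in replicate 1 and 496 of 542 in replicate 2 had none within 10 kb. Within the same list, another peak lay within 1 kb of 12 and 9 downstream peaks.

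Overlapping peaks of the libraries did not always lie on the same side of the TSS. A downstream peak in at least 1 list occurred in 80 overlapping pairs, beside 341 pairs that were upstream in both. In 32 of the 80 (40%) both peaks were downstream, in 25 only that of replicate 1 and in 23 only that of replicate 2. The 48 pairs with peaks on opposite sides lay close to the start, within 118 bp in every case, and their centres were a median of 51 bp apart. Where both peaks refer to the same TSS, this closeness and this offset follow largely from overlap across it. The 32 pairs that were downstream in both lists had centres a median of 9.5 bp apart, beside 26 bp for the 341 pairs upstream in both. The nearest transcript was the same in both lists for 31 of the 32, 315 of the 341 and 28 of the 48. A side refers to each peak's own nearest TSS, so a change of nearest transcript can itself put a pair on opposite sides. The last count is therefore partly built in.

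**Figure D3:**
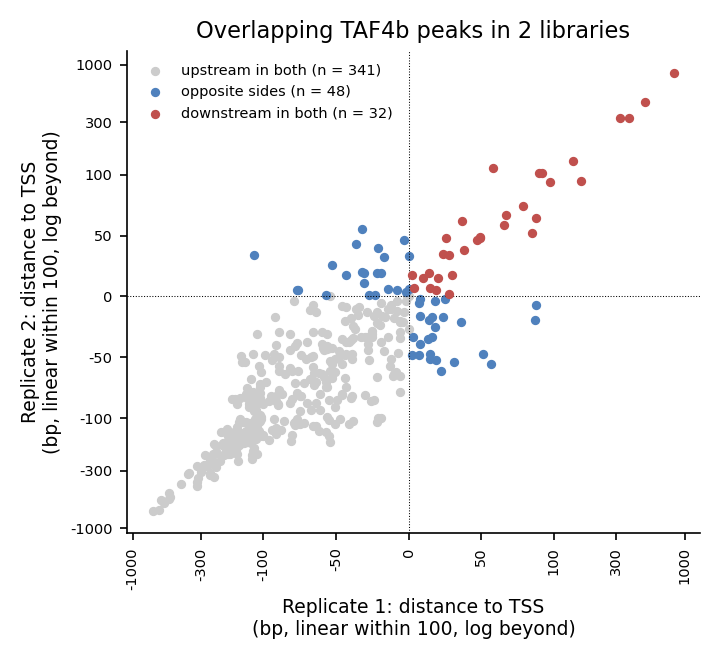
Distance to the nearest TSS of overlapping TAF4b peaks in replicate 1 (x axis, bp) and replicate 2 (y axis, bp), linear within 100 bp and logarithmic beyond. Red points are the 32 pairs downstream in both lists, blue points the 48 pairs on opposite sides, and grey points the 341 pairs upstream in both. The blue points all lie near the origin, which overlap across a TSS largely requires where both peaks refer to the same TSS.

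Pairs downstream in both lists ranged from 2 to 826 bp in replicate 1 and from 2 to 848 bp in replicate 2. Their median scores were 9.81 and 22.3, beside 9.24 and 23.3 for the 341 pairs upstream in both lists. An H3K4me3 region overlapped 22 of the 32 (68.8%), 31 of the 48 on opposite sides (64.6%) and 205 of the 341 upstream in both (60.1%).

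H3K4me3 lay over a majority of downstream peaks, at a share not distinguishable from that of upstream peaks. For the downstream peaks of replicate 1 the count was 108 of 168 (64.3%, 56.5 to 71.5%), against 421 of 742 upstream (56.7%, 53.1 to 60.3%). Fisher's exact test gave p = 0.0832 and an adjusted p = 0.135, for odds of 1.37 times those upstream (0.958 to 1.98). In replicate 2, 100 of 166 downstream peaks (60.2%, 52.4 to 67.7%) and 539 of 908 upstream peaks (59.4%, 56.1 to 62.6%) were covered, and the odds ratio was 1.04 (0.731 to 1.48, with p = 0.864 and an adjusted p = 0.864 in the exact test). Almost all of this overlap came from H3K4me3 replicate 1. The short list of H3K4me3 replicate 2 covered 13 and 12 downstream peaks, 7.74% and 7.23%, beside 5.26% and 5.95% of upstream peaks.

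**Figure D4:**
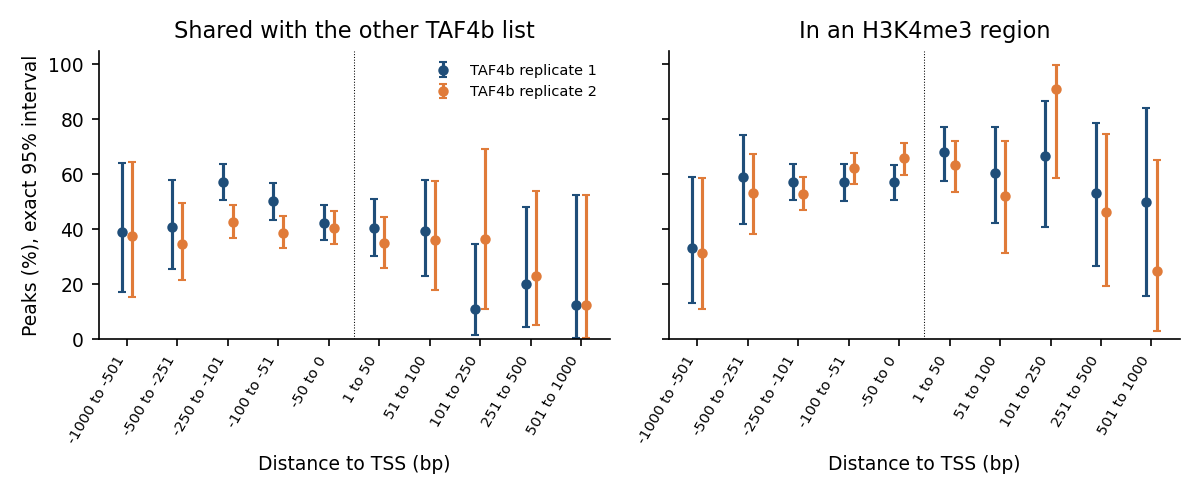
Share of TAF4b peaks in percent (y axis) shared with the other TAF4b list (left) and in an H3K4me3 region of either list (right), by distance to the TSS in bp (x axis), with exact 95% intervals; the dotted line is the TSS. Beyond 100 bp downstream each bin holds 8 to 18 peaks, so its interval is wide.

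Among the downstream bins, H3K4me3 overlap in replicate 1 was 68.1% at 1 to 50 bp, 60.6% at 51 to 100 bp and 66.7% from there to 250 bp. It was 53.3% from there to 500 bp and 50% from there to 1000 bp. In replicate 2 the values were 63.3%, 52%, 90.9%, 46.2% and 25% in the same order. The bins beyond 100 bp hold few peaks, and a trend over distance was not tested.

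The regions of H3K4me3 replicate 1 over downstream peaks were like those over upstream peaks in size. Regions of H3K4me3 replicate 2 were not compared. The median width of the H3K4me3 replicate 1 regions was 802 bp for TAF4b replicate 1 peaks and 786.5 bp for TAF4b replicate 2 peaks. For upstream peaks it was 788 and 767 bp. Median H3K4me3 scores were 65 and 66.2 at downstream peaks, beside 67.3 and 65 at upstream peaks. Of the covered downstream peaks, 99 of 107 and 91 of 100 lay wholly inside their region of H3K4me3 replicate 1. Where peak and region had the same nearest transcript, the region centre was further downstream than the peak in 22 of 50 cases for replicate 1 and 14 of 41 for replicate 2. For upstream peaks the counts were 104 of 197 and 150 of 272. This offset includes the peak distance that defined the sides. A contrast between the sides is thus partly built in, and it was not tested.

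Downstream peaks outside any H3K4me3 region mostly lay far from one. Of 60 such peaks in replicate 1, 18 had a region within 1 kb and 42 (70%) had none within 10 kb. Of 66 in replicate 2, the counts were 16 and 44 (66.7%). Among the 321 and 369 upstream peaks without a region, 65.4% and 64.5% had none within 10 kb.

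Fewer downstream than upstream peaks scored above the median of their list, a difference that did not pass after adjustment in either library. The list medians, 7.7 and 18.3, were exceeded by 49.2% and 49.1% of all peaks because of ties. In replicate 1, 71 of 168 downstream peaks (42.3%, 34.7 to 50.1%) and 394 of 742 upstream peaks (53.1%, 49.4 to 56.7%) scored above it. Fisher's exact test gave p = 0.0131 and an adjusted p = 0.0523, with an odds ratio of 0.647 (0.454 to 0.919). In replicate 2 the shares were 71 of 166 (42.8%, 35.1 to 50.7%) and 462 of 908 (50.9%, 47.6 to 54.2%), and the odds ratio was 0.722 (0.509 to 1.02, with p = 0.0631 and an adjusted p = 0.135 in the exact test).

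In replicate 1 the windows gave unlike values, a difference that was not tested. Beyond 100 bp, 10 of 41 downstream and 173 of 282 upstream peaks exceeded the list median (odds ratio 0.204, adjusted p = 0.00011 in Fisher's exact test), while within 100 bp 61 of 127 and 221 of 460 did (odds ratio 1). In replicate 2 the odds ratios of these windows were 0.583 and 0.836, and neither passed. Scores ranged from 5 to 20.8 among all downstream peaks of replicate 1 and from 13.2 to 119.7 in replicate 2.

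**Figure D5:**
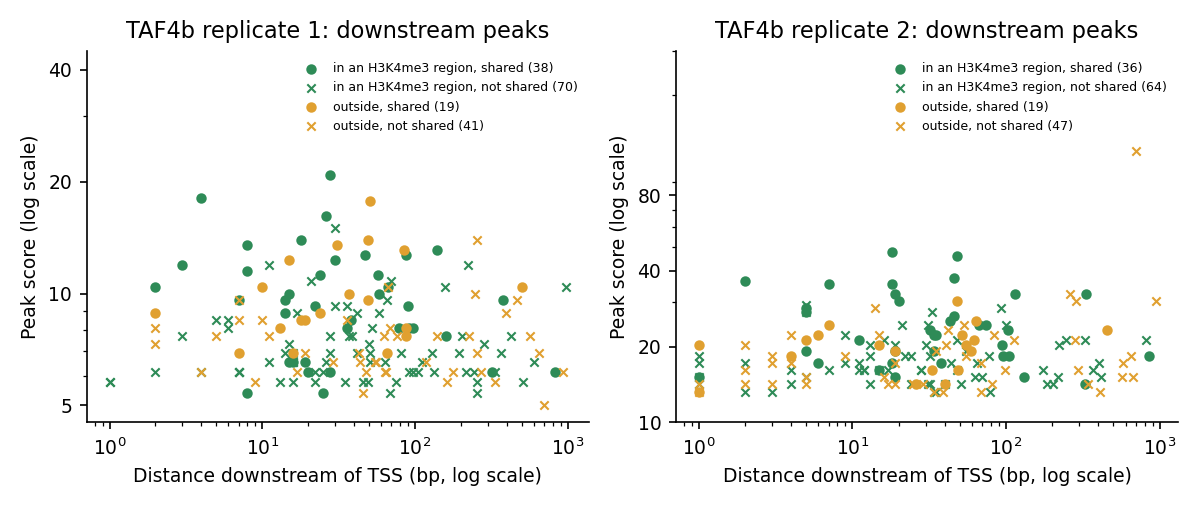
Peak score (y axis, log scale) against distance downstream of the TSS in bp (x axis, log scale) for the 168 downstream peaks of replicate 1 (left) and the 166 of replicate 2 (right). Green marks lie in an H3K4me3 region and orange marks outside, circles are shared with the other TAF4b list and crosses are not; the peak with a score of 119.7 stands alone in replicate 2.

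The Focus Ratio is the HOMER peak caller's measure of how well the reads on the DNA strands flank the peak centre, so that a higher value means a sharper peak. Its medians were 0.658 for downstream and 0.674 for upstream peaks of replicate 1, and 0.667 for both in replicate 2. The list median was exceeded by 49.9% and 49.3% of all peaks of replicates 1 and 2. Among downstream peaks these were 71 of 168 (42.3%) and 77 of 166 (46.4%), and among upstream peaks 365 of 742 (49.2%) and 451 of 908 (49.7%). The odds ratios of 0.756 (0.530 to 1.07, adjusted p = 0.165) and 0.877 (0.620 to 1.24, adjusted p = 0.513) did not pass in Fisher's exact test. Within 100 bp of the TSS the odds ratio in replicate 1 was 0.595 (0.390 to 0.902, p = 0.0121 and adjusted p = 0.0349 in Fisher's exact test). That in replicate 2 was 0.740 (0.497 to 1.10, adjusted p = 0.142 in Fisher's exact test). These adjusted values do not correct for the number of windows tried. Beyond 100 bp the direction turned in both lists, with odds ratios of 1.27 and 1.26 (adjusted p = 0.576 and 0.663 in Fisher's exact test), and neither passed.

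The strongest peaks that were downstream in both lists were ordered by their average score percentile. Positions are those of the files on GRCm39, strands of transcripts were inferred from features at different distances from the same TSS, and transcripts carry Ensembl identifiers without gene names. Highest was a peak on chromosome 15, spanning 102314559 to 102314649 in replicate 1 and centred 26 bp downstream of ENSMUST00000170884 on the plus strand. Its scores were 16.2 and 45.7, its Focus Ratios were only 0.551 and 0.592, and its replicate 2 peak was centred at 48 bp. It lay in an H3K4me3 region of 932 bp with a score of 65.

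The next spanned 85265065 to 85265155 on chromosome 17, centred 28 bp from ENSMUST00000181147 on the minus strand in replicate 1 and 2 bp from it in replicate 2. With a score of 20.8 it was the highest downstream peak of replicate 1 and ranked 7 in that list, and its replicate 2 score was 36.5. An H3K4me3 region of 1398 bp covered it. The third, on chromosome 9 at 55419478 to 55419568, was centred at 4 and 7 bp from ENSMUST00000034866, with scores of 18.1 and 35.5 and a region of 676 bp. These top peaks sat practically at the start.

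The fourth was the only peak of the top 6 with H3K4me3 in both lists. It spanned 5755525 to 5755615 on chromosome 10, centred 30 and 18 bp from ENSMUST00000019907, with scores of 12.3 and 35.5, in regions of 1069 and 500 bp. The fifth, on chromosome 5 at 135807338 to 135807428, was centred at 49 and 48 bp from ENSMUST00000019323 with scores of 13.9 and 30.4. It had no H3K4me3 region within 35625 bp. The sixth, on chromosome 1 at 165288563 to 165288653, lay at 2 and 18 bp from ENSMUST00000027853, with scores of 10.4 and 47.7 and an H3K4me3 region of 1337 bp with a score of 136.9. All 6 were annotated as promoter-TSS.

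Of the peaks downstream in both lists and outside H3K4me3, the fifth above ranked highest. It was followed by a peak on chromosome 16 at 43710133 to 43710223, at 15 and 7 bp from ENSMUST00000132859, scoring 12.3 and 24.3 and lying 174894 bp from the nearest region. Then came a peak on chromosome 11 at 117545439 to 117545529, at 85 and 52 bp from ENSMUST00000141115, with scores of 13.1 and 22.3 and a region 769 bp away. The distance to the mark at such peaks thus ran from under 1 kb to over 10 kb.

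The fourth of this group lay deep in a first exon. On chromosome 1, a peak at 46892661 to 46892751 was centred 500 bp downstream of ENSMUST00000027131 on the minus strand, in exon 1 of 10, with a score of 10.4. Replicate 2 had its peak at 46892684 to 46892818, centred at 455 bp, with a score of 23.3. Replicate 1 held another peak in the same exon, at 46892938 to 46893028 and 223 bp from the TSS. With a score of 11.9 this was the highest first-exon peak of that list, it had no partner in replicate 2, and it overlapped an H3K4me3 region of 500 bp.

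Downstream calls beyond 100 bp in both lists numbered 5, and they were picked out after their values had been seen. Besides the peak at 500 bp, they lay at 140 and 132 bp from ENSMUST00000015800 (chromosome 9), at 322 and 328 bp from ENSMUST00000179285 (chromosome 6), at 375 and 330 bp from ENSMUST00000206335 (chromosome 7) and at 826 and 848 bp from ENSMUST00000150182 (chromosome 7). The peak of ENSMUST00000206335 lay in the only exon of its transcript, with scores of 9.62 and 32.5, inside an H3K4me3 region of 1648 bp with a score of 162.4. The peak of ENSMUST00000150182 had scores of 6.16 and 18.3. It lay in the widest H3K4me3 replicate 1 region over any downstream peak, 2531 bp with a score of 190.2. In replicate 1 it was annotated to the promoter of another transcript and in replicate 2 to a first intron. All of these but the peak at 500 bp were covered by H3K4me3 replicate 1, and none by replicate 2.

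The highest first-exon peak of replicate 2 was also the highest peak of that list. It lay on chromosome 17 at 40157876 to 40158010, 699 bp into ENSMUST00000240377, a transcript of a single exon, with a score of 119.7. It was not called in replicate 1. The next highest downstream score of replicate 2 was 47.7, and the highest upstream score was 55.8. Peaks were not filtered here for repeated or poorly mappable sequence, and whether such sequence raised this score was not tested. The highest first-intron peaks were modest: a score of 7.7 in replicate 1, tied with others, on chromosome 1 at 26726271 to 26726361 in ENSMUST00000097801, and a score of 30.4 in replicate 2, on chromosome 7 at 19079304 to 19079438. The latter was tied with the peak at 941 bp described next. It was annotated to intron 1 of ENSMUST00000160909 and centred 286 bp from ENSMUST00000161378. Neither was shared or in an H3K4me3 region. Of the replicate 1 first-intron peaks tied at 7.7, that on chromosome 19 at 427 bp lay in an H3K4me3 region. The one on chromosome 10 at 563 bp did not, and neither of these tied peaks was shared.

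At the edges of the window, the closest peaks were centred at 1 bp, 2 in replicate 1, tied in score, and 9 in replicate 2. In replicate 1 one of them was a peak on chromosome 19 at 41921816 to 41921906 near ENSMUST00000112123, with a score of 5.77 and H3K4me3 regions of both lists. The highest of the 9 by score was a peak on chromosome 5 at 122402455 to 122402589 near ENSMUST00000141281, with a score of 20.3 and a partner at -57 bp in replicate 1. The farthest lay at 981 bp on chromosome 5 in the only exon of ENSMUST00000202387, covered by H3K4me3, and at 941 bp on chromosome 9 in intron 1 of ENSMUST00000217371, without it. Neither of these farthest peaks was shared.

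By chromosome, chromosome 7 held the most downstream peaks in replicate 1 (20, beside 61 upstream) and chromosome 5 in replicate 2 (14, beside 54 upstream). Chromosome 18 held 0 in replicate 1 and 3 in replicate 2, beside 22 and 28 upstream, and chromosome 19 held 8 and 2, beside 21 and 38 upstream. The X chromosome held 3 and 5, beside 17 and 21 upstream, and 0 lay on unplaced contigs. These counts were not tested. Where the strand of the nearest transcript could be inferred, it was plus for 44 of 82 peaks of replicate 1 and 32 of 69 of replicate 2.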

How the data were processed

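The authors deposited 1 list per TAF4b and H3K4me3 library. Per the submitters' processing notes, the tools were HOMER 4.10, SAMtools 1.9, Bowtie2 2.3.0, FastQC 0.11.5, Trim Galore 0.5.0 and bcl2fastq 2.20, on GRCm39. Their settings, and whether IgG was a control for the calls, are not given in the sources used here. Per the file headers, each peak has a score and, for TAF4b, a Focus Ratio, a fraction from 0 to 1.

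Distances were taken as deposited. Over 1166 transcripts nearest to 2 or more features over 6 bp apart, distances matched feature centres within 2 bp on exactly 1 strand, which gave that strand. Of the Ensembl identifiers of the 298 transcripts nearest to downstream peaks, 0 were in the RefSeq gene table. This does not show that these transcripts lack RefSeq counterparts. Features sharing at least 1 bp overlapped, and H3K4me3 regions of either list counted. Shares have exact (Clopper-Pearson) 95% intervals. The 8 Fisher's exact tests, two-sided and with the conditional estimate of the odds ratio, were adjusted together by Benjamini-Hochberg (threshold 0.05). They were tested on simulated data. The p of each alternative window or setting was adjusted in the place of its main p among the 8. The number of alternatives, 66, was not corrected for. Named peaks are the 6 highest of those downstream in both lists, the 4 highest of these outside H3K4me3, the highest first-exon and first-intron peak of each list, and the closest and farthest, unless stated. Members, lists and tests were chosen with earlier results of these data known. Python 3.11.15, pandas 2.3.3, NumPy 2.4.6, SciPy 1.17.1 and matplotlib 3.10.9 were used.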

Additional observations from a re-analysis of the deposited data

How the results depend on the processing

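Of 66 alternatives to the 8 odds ratios, 4 were added after the data had been seen, and 52 gave the same direction and call. Some of these could not differ. Keeping only chromosomes 1 to 19, X and Y repeats the 8 main values, since 0 of these peaks lay elsewhere. Using only same-numbered H3K4me3 lists repeats the values of leaving out the other H3K4me3 list. The score of replicate 1 within 100 bp also counts as the same direction, at an odds ratio of 0.9995. In replicate 1, sharing with the other list no longer passed within 100 bp (0.785), among peaks above the median score (0.757) or above it in both lists (0.915); each has fewer peaks. Sharing in replicate 2 passed when the same side of the TSS was required in both lists (0.397). This setting removes the pairs on opposite sides, which lie near the TSS, where downstream peaks crowd. It cut the shared downstream peaks from 55 to 32 of 166 and the shared upstream peaks from 366 to 341 of 908. A lower odds ratio was thus built into the setting, so the pass does not measure replicate agreement. The same setting in replicate 1 (0.277) counts among the 52 and has the same limit. There it cut the shared downstream peaks from 57 to 32 of 168 and the shared upstream peaks from 364 to 341 of 742. Score passed beyond 100 bp in replicate 1 (0.204) and at the upper quartile in replicate 2 (0.548), and the Focus Ratio within 100 bp in replicate 1 (0.595). No call among the 66 alternatives is corrected for their number. Directions turned, with no test passing, for score among shared peaks in replicate 1 (1.16), for the Focus Ratio beyond 100 bp in replicates 1 and 2 (1.27 and 1.26) and among shared peaks in replicate 1 (1.21), and for H3K4me3 overlap of replicate 2 within 100 bp (0.890), within 500 bp of a region (0.915) and for peaks above the median score (0.963). The cause was not tested in these cases. Leaving out each H3K4me3 list gave 1.37 to 1.51 in replicate 1 and 1.05 to 1.23 in replicate 2. The labels do not say that replicate numbers pair the libraries; with same-numbered lists only (the replicate block), H3K4me3 overlap gave 1.37 and 1.23, which changed no call. Leaving out a TAF4b list leaves the values of the other, since each was analysed alone. Since depth is unknown, a peak missing from a list may be one that the library was too shallow to show.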

Other observations

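Fewer TAF4b peaks were centred just downstream of the TSS than just upstream. In replicate 1, 63 peaks were centred at 1 to 25 bp and 125 at -24 to 0 bp, and in replicate 2 the counts were 75 and 117. At 26 to 50 bp they were 31 and 34, and at -49 to -25 bp they were 116 and 144. These counts were made after the data had been seen.

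The strongest TAF4b peak of replicate 2, 699 bp into ENSMUST00000240377 on chromosome 17, lay 926 bp from an H3K4me3 region of replicate 2 at 40154046 to 40156950. That region had a score of 3956 and ranked 2 among the 320 of its list. H3K4me3 replicate 1 and TAF4b replicate 1 each held 0 features within 50 kb of the peak. The strongest features of this locus thus occurred in the libraries numbered 2 for both targets and in neither library numbered 1. Whether repeated or poorly mappable sequence raised these scores was not tested.

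Peaks in later exons were few, 2 in replicate 1 and 1 in replicate 2. On chromosome 9 at 3037321 to 3037411, a replicate 1 peak in exon 2 of 4 of ENSMUST00000155807 had a score of 13.9 and a Focus Ratio of 0.884, and on chromosome 7 at 28432118 to 28432252, a replicate 2 peak in exon 3 of 7 of ENSMUST00000032818 had a score of 32.5 and a Focus Ratio of 0.895. The latter is the highest Focus Ratio of that list. The other later-exon peak of replicate 1 had a Focus Ratio of 0.696. Around the chromosome 9 peak, the 4 lists held 0 other features within 50 kb, and repeated or poorly mappable sequence was not filtered out here. None of these peaks was shared or in an H3K4me3 region.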
